A study of Mus musculus with 6 samples.

Results

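Globin genes and genes of red cell formation were followed in bone marrow (BM) cells of mice with JAK3-driven T-cell acute lymphoblastic leukemia (T-ALL). The 9 genes were chosen by name: the adult alpha-globin genes Hba-a1 and Hba-a2, the adult beta-globin genes Hbb-bs and Hbb-bt, Alas2, Slc4a1, Klf1, Epor and Tfrc. All 9 were found among the 54532 genes of the deposited table. They were picked with their levels in these libraries already known, so the comparison of the 2 groups over them is given as a description without a test. In GRCm38 the alpha-globin genes lie side by side on chromosome 11, Hba-a1 at 32283511 to 32284465 and Hba-a2 at 32296489 to 32297298. The beta-globin genes lie on chromosome 7, Hbb-bt at 103812524 to 103813996 and Hbb-bs at 103826534 to 103828096. The others are at chromosome X, 150547375 to 150570638 (Alas2), chromosome 11, 102348824 to 102366203 (Slc4a1), chromosome 8, 84901928 to 84905291 (Klf1), chromosome 9, 21958897 to 21963506 (Epor), and chromosome 16, 32608920 to 32632794 (Tfrc).

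Donor hematopoietic cells that lacked lineage markers received the activated kinase JAK3 M511I, linked to GFP, from a retrovirus and were transplanted into irradiated male C57BL/6 mice. BM was taken on post-transplantation day 100, and 6 libraries were made, of which WT 1 to WT 3 carry a WT label and KO 1 to KO 3 a KO label. The profiled cells came from the study's Vav1-Cre model, in which the KO donors carried Vav1-Cre with a floxed Phf6 allele (Phf6 fl/y) and the WT donors carried the floxed allele without Cre; JAK3 M511I was shared by both groups. Vav1 drives Cre across blood lineages and not in T cells alone, recipients can keep blood cells of their own, and the labels give the cells as BM without a sort. The paper itself calls the profiled cells T-ALL cells, and it checked the expression of chosen genes in GFP+ T-ALL cells. The genotype labels name a different gene number in each sample of a group; the series' design text names Phf6, and all were read as Phf6. Nothing in the labels says which libraries came from separate mice, so p-values measure the spread between these samples.

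Red cell precursors arise in BM from megakaryocyte and erythroid progenitors. Erythropoietin acts on them through its receptor Epor and JAK2, and Gata1 and Klf1 switch on the erythroid program. Tfrc takes in transferrin iron, and Alas2 carries out the first step of heme synthesis. Late precursors fill with alpha- and beta-globin chains and place the anion exchanger Slc4a1 (band 3) in the membrane. Tfrc is also used by other dividing cells, activated and leukemic T cells among them, so it is not a marker of red cell precursors alone.

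Recovered reads lay between 13015823 and 18235095 per library. WT 2 stood apart: Pearson's r of log2(FPKM + 1) across genes, where FPKM is fragments scaled to gene length and library size, was 0.779 with WT 1 and 0.746 with WT 3, against 0.948 between WT 1 and WT 3 and 0.963 to 0.973 among the KO-labelled libraries. Phf6 itself had an FPKM of 7.47, 3.67 and 8.02 in WT 1 to WT 3 and of 6.73, 5.50 and 5.11 in KO 1 to KO 3. The groups overlapped, and a level summed over the whole gene does not show a deletion of a part of it. T cell markers were present in all 6 libraries, with a summed FPKM of 8 genes between 823 and 1804. The labels for WT and KO are used as given, and values are shown with and without WT 2.

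Upstream sequences are shown for 6 of the genes because the globins, Klf1 and Epor, which are read here as RNA levels, carry short motifs bound by erythroid factors, and because the copies of alpha-globin cannot be told apart by their start regions. RefSeq (GRCm38.p6) gave windows for 8 of the 9 genes, with Slc4a1 not among them. The 300-base windows of Hba-a1 and Hba-a2 shared an unbroken stretch of 297 identical bases, so only Hba-a2 is printed. In Hba-a1 the 161 bases next to the start lie in an annotated exon, so the rule below would print another stretch for it. Each line gives the bases nearest to the RefSeq start that lie in no annotated exon of the gene, 5′ to 3′ on the strand of the gene. Capitals mark GATAAG (the GATA motif), CACCC (the Klf-type motif), CCAAT and TATAA, on either strand.
Hba-a2: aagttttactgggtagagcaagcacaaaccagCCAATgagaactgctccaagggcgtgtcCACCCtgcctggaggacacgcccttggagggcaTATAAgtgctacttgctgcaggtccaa
Hbb-bs: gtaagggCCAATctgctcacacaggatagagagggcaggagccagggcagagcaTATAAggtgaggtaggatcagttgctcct
Hbb-bt: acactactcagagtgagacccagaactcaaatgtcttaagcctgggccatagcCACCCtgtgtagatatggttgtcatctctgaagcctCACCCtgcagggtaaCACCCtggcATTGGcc
Klf1: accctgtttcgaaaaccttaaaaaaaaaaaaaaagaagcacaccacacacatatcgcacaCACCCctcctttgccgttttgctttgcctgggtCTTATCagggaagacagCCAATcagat
Epor: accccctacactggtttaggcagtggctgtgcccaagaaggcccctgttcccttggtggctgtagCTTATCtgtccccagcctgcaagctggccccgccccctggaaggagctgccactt
Tfrc: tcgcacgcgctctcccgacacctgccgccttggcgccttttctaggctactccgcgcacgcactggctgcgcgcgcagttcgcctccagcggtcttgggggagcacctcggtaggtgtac
These lie at chr11:32296369-32296488 (plus strand), chr7:103827929-103828011 (minus), chr7:103813997-103814116 (minus), chr8:84901808-84901927 (plus), chr9:21963577-21963696 (minus) and chr16:32608776-32608895 (plus).

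Within 250 bases upstream of the start, GATAAG was found on either strand in 6.55% of 32851 mouse promoter windows. It occurred in the windows of Hba-a1, Hba-a2, Hbb-bs, Hbb-bt, Klf1 and Epor and in neither that of Alas2 nor that of Tfrc. In the alpha- and beta-globin windows it lay farther upstream than the stretch printed, with its first base 185 bases from the start of Hba-a2, 209 from that of Hbb-bs and 204 from that of Hbb-bt. TATAA, held by 22.8% of windows, began 30 bases upstream of Hba-a2, 29 upstream of Hbb-bs and 28 upstream of Hbb-bt. CCAAT was held by 33.9% of windows, and CACCC, which is short, by 52.0%. The longer form CACACCC, which overlaps CACCC, was held by 6.93% of windows and was found in those of Hbb-bs and Klf1. A match is a run of letters and not a measured site.

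Hba-a1 (ENSMUSG00000069919), an alpha-globin gene, had an FPKM of 71.6 in WT 1, 38784 in WT 2 and 291 in WT 3. The KO-labelled libraries had 70.2, 36.0 and 5.66. WT 2 was 541 times WT 1 and 133 times WT 3, whereas WT 1 lay next to KO 1. Ranked by FPKM within its library, Hba-a1 was gene number 2 in WT 2, number 135 in WT 3, number 636 in WT 1, and number 463, 1199 and 7195 in KO 1, KO 2 and KO 3. On average this made 13049 ± 22288 (SD, n = 3) for the WT label, or 182 without WT 2, and 37.3 ± 32.3 (SD, n = 3) for the KO label.

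**Figure D1:**
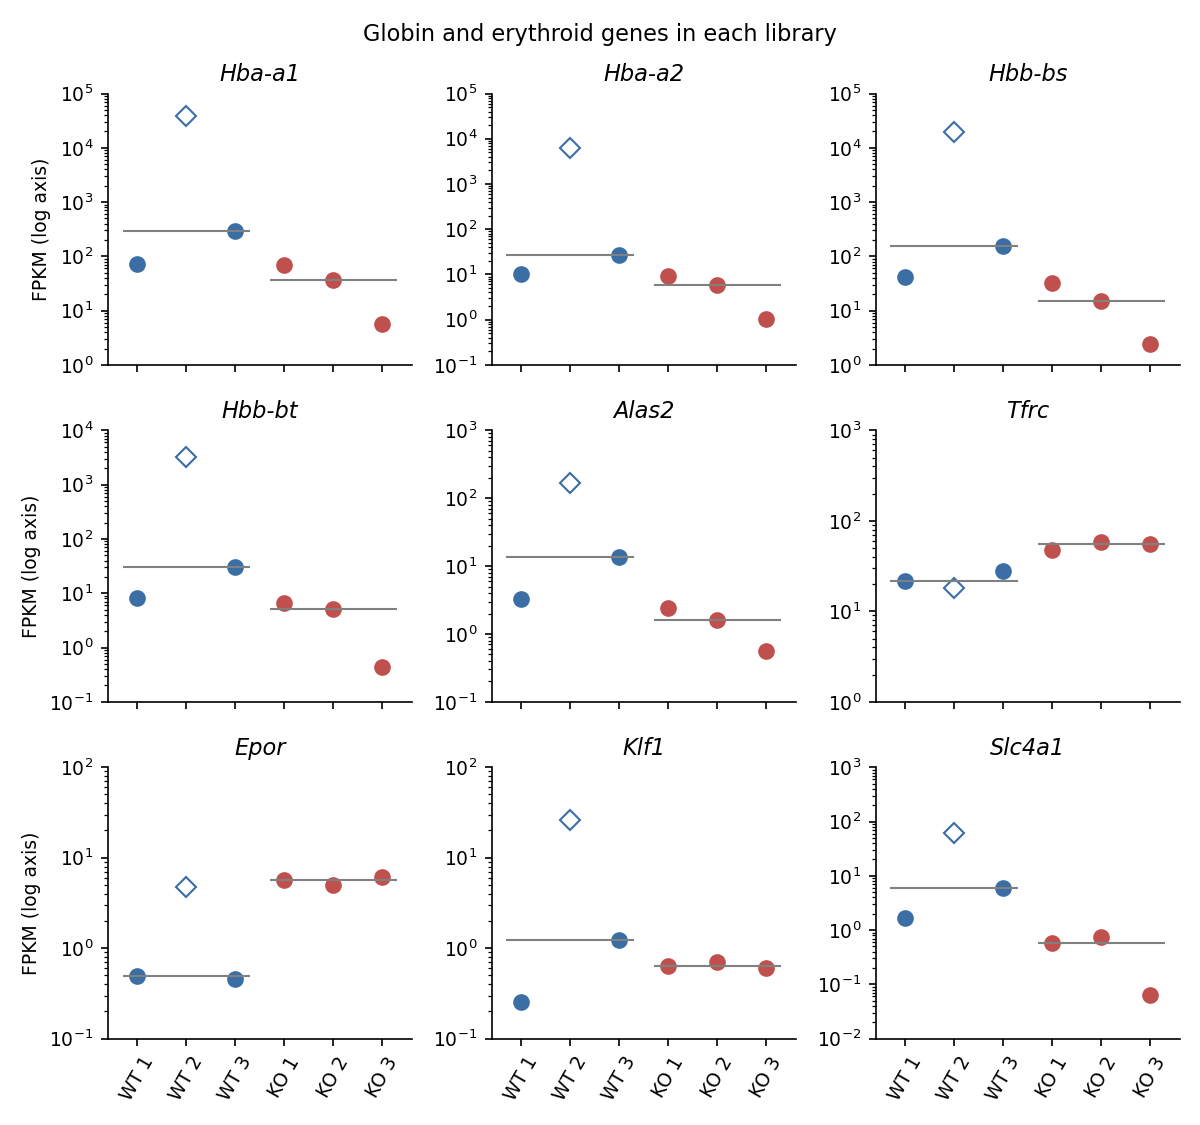
FPKM of each of the 9 genes on a log axis, with 1 point per library (blue, WT-labelled; red, KO-labelled; open diamond, WT 2) and a grey line at the median of each group of 3. WT 2 was the highest library for 7 of the 9 genes, and the KO-labelled libraries lay above those labelled WT for Tfrc and Epor.

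Hba-a2 (ENSMUSG00000069917), the neighbouring alpha-globin copy, had 10.3, 6225 and 27.1 in WT 1 to WT 3 and 9.01, 5.81 and 1.02 in KO 1 to KO 3. Hbb-bs (ENSMUSG00000052305), an adult beta-globin gene, had 41.3, 19603 and 157 in the WT-labelled and 31.7, 14.9 and 2.43 in the KO-labelled libraries. Its copy Hbb-bt (ENSMUSG00000073940) had 8.29, 3194 and 30.4 in WT 1 to WT 3 and 6.49, 5.15 and 0.442 in KO 1 to KO 3. All 4 globin genes had the same order of libraries by FPKM, which was WT 2, WT 3, WT 1, KO 1, KO 2 and KO 3. The coding sequences of Hba-a1 and Hba-a2 differ in 1 of 429 bases and those of Hbb-bs and Hbb-bt in 1 of 444, and the handling of reads that match both copies is not given in the sources used here. The level of a single copy is therefore uncertain, and sums over the copies are given next.

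Summed over the 4 genes, adult globins took 622426 of the reads of WT 2, or 3.41% (Wilson 95% interval 3.41% to 3.42%). They took 0.0103% (0.00983% to 0.0108%) in WT 1 and 0.0420% (0.0410% to 0.0431%) in WT 3. KO 1, KO 2 and KO 3 had 0.0107% (0.0102% to 0.0112%), 0.00582% (0.00542% to 0.00625%) and 0.000861% (0.000720% to 0.00103%), the last from 120 reads. The summed FPKM was 132, 67806 and 506 in WT 1 to WT 3 and 118, 61.8 and 9.55 in KO 1 to KO 3. These intervals cover counting error only, since copies made by PCR are not independent molecules.

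On the FPKM scale the KO-labelled libraries lay below all WT-labelled ones for the sum, but WT 1 and KO 1 were close. As a share of reads WT 1 was below KO 1, with overlapping intervals. Rescaled to TPM (FPKM brought to the same sum in every library), the sum was 399 in WT 1 and 480 in KO 1. The groups therefore overlapped on both of those scales and not on the deposited one, which divides by a library size that was 1.01 times the recovered total in WT 1, 1.16 times in KO 1 and 0.645 times in WT 2. On the log2(FPKM + 1) scale the sum differed by -5.27 ± 2.93 (SE, KO minus WT), with an SD of 4.74 among the WT-labelled and 1.81 among the KO-labelled libraries. Without WT 2 it differed by -2.60.

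The proportion of alpha to beta chains was compared within each library, where library size cancels. The ratio of summed alpha to summed beta FPKM was 1.65, 1.97 and 1.70 in WT 1 to WT 3 and 2.07, 2.09 and 2.33 in KO 1 to KO 3. It moved 1.41-fold over libraries whose summed globin level differed 7098-fold. The KO-labelled libraries had the higher ratios, and the ratio in KO 3 rests on 120 reads. Hbb-bs stood to Hbb-bt at 4.98, 6.14 and 5.17 in the WT-labelled and 4.89, 2.89 and 5.49 in the KO-labelled libraries, without an order by group.

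**Figure D2:**
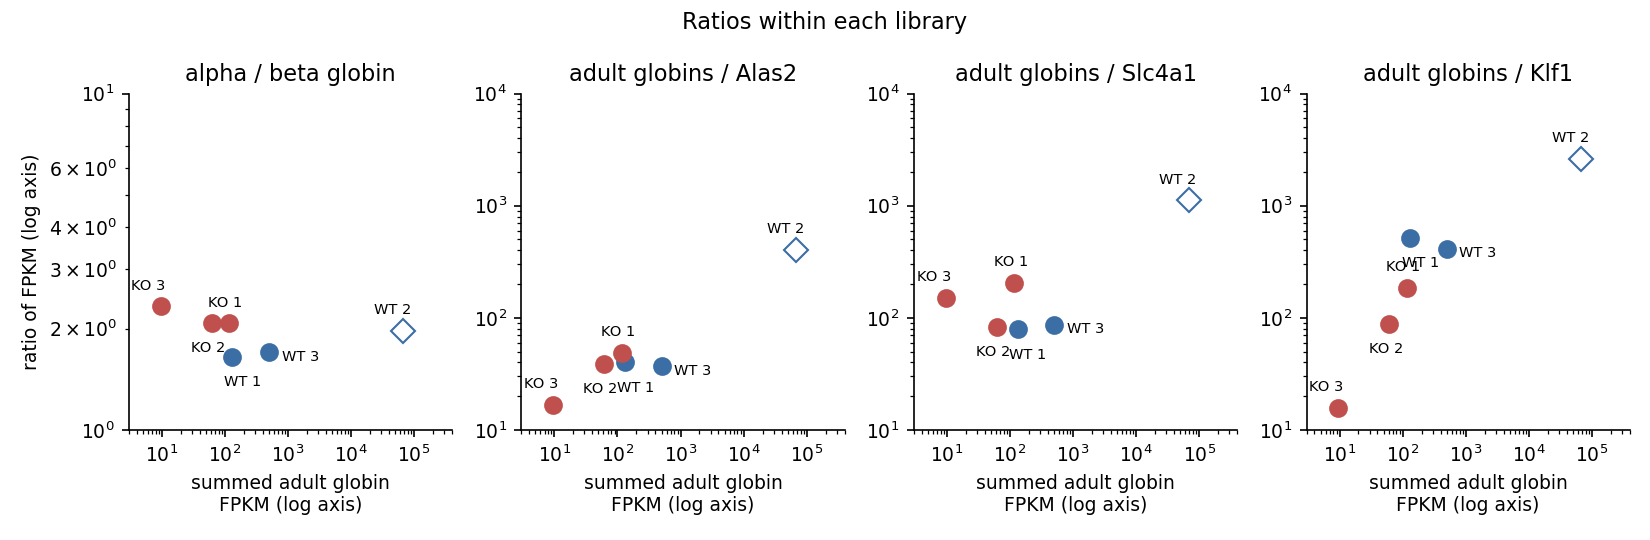
Ratios of FPKM within each library (y axis, log) against the summed FPKM of the 4 adult globin genes (x axis, log), 1 point per library, with colors as for the levels. The alpha to beta ratio stayed between 1.65 and 2.33, whereas the ratio of globins to Alas2, Slc4a1 and Klf1 was highest in WT 2.

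Alas2 (ENSMUSG00000025270), the erythroid enzyme of the first step of heme synthesis, followed the same order of libraries as the globins. Its FPKM was 3.29, 169 and 13.7 in WT 1 to WT 3 and 2.41, 1.59 and 0.569 in KO 1 to KO 3. The WT mean of 61.9 ± 92.6 (SD, n = 3) was 8.48 without WT 2, and the KO mean was 1.52 ± 0.924 (SD, n = 3). The summed globin FPKM was 40.0, 402 and 37.0 times that of Alas2 in WT 1 to WT 3 and 48.7, 39.0 and 16.8 times in KO 1 to KO 3. WT 2 thus had more globin per unit of Alas2 than any other library, while WT 1, WT 3, KO 1 and KO 2 lay close together.

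Slc4a1 (ENSMUSG00000006574), the band 3 anion exchanger of the red cell membrane, had 1.67, 60.8 and 5.88 in the WT-labelled and 0.571, 0.740 and 0.0635 in the KO-labelled libraries. Read counts were low in the KO group, with 52, 57 and 5 reads. The ratio of globins to Slc4a1 was 78.8, 1115 and 86.0 in WT 1 to WT 3 and 206, 83.5 and 150.4 in KO 1 to KO 3. WT 2 was again the highest.

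Klf1 (ENSMUSG00000054191), the zinc finger factor that binds CACCC boxes of adult beta-globin and other erythroid genes, had another order of libraries. Its FPKM was 0.254, 25.8 and 1.22 in WT 1 to WT 3 and 0.632, 0.706 and 0.609 in KO 1 to KO 3, from 6, 464 and 29 and from 18, 17 and 15 reads. WT 1 lay below every KO-labelled library and WT 3 above, so the groups overlapped, and Klf1 was the 1 gene of the 9 that did not reach an FPKM of 1 in 3 libraries. Its KO-labelled values varied 1.16-fold while the summed globins varied 12.3-fold in the same libraries. The globin to Klf1 ratio was 518, 2628 and 414 in the WT-labelled and 186, 87.6 and 15.7 in the KO-labelled libraries, so that these groups did not overlap. The difference of Klf1 on the log2(FPKM + 1) scale was -1.35 ± 1.36 (SE) and -0.02 ± 0.41 without WT 2.

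Epor (ENSMUSG00000006235), the erythropoietin receptor, was higher in the KO-labelled libraries, at 5.67, 4.95 and 6.15, than in WT 1 and WT 3, at 0.489 and 0.454. WT 2 had 4.79, just below the lowest KO-labelled value. The KO mean of 5.59 ± 0.605 (SD, n = 3) stood beside a WT mean of 1.91 ± 2.49 (SD, n = 3) and was 11.9 times the mean of WT 1 and WT 3. The log2 difference was 1.5 ± 0.66 (SE) with all libraries and 2.16 ± 0.08 without WT 2. Reads came to 15 and 14 in WT 1 and WT 3 and to 155 to 210 in the KO group. In WT 2 the summed globin FPKM was 14156 times that of Epor; in KO 3 it was 1.55 times.

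Tfrc (ENSMUSG00000022797), the transferrin receptor, had 21.7, 18.0 and 27.8 in WT 1 to WT 3 and 47.3, 58.3 and 55.8 in KO 1 to KO 3. The means were 22.5 ± 4.94 and 53.8 ± 5.76 (SD, n = 3 each), or 2.39-fold. The groups were apart, and WT 2, the highest library for every globin gene, was the lowest for Tfrc. The log2 difference was 1.24 ± 0.20 (SE), and 1.09 ± 0.19 without WT 2. On RPM (reads scaled to the recovered total) the WT-labelled values were 135, 71.8 and 182 and the KO-labelled ones 341, 436 and 399, so the groups were also apart on that scale.

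**Figure D3:**
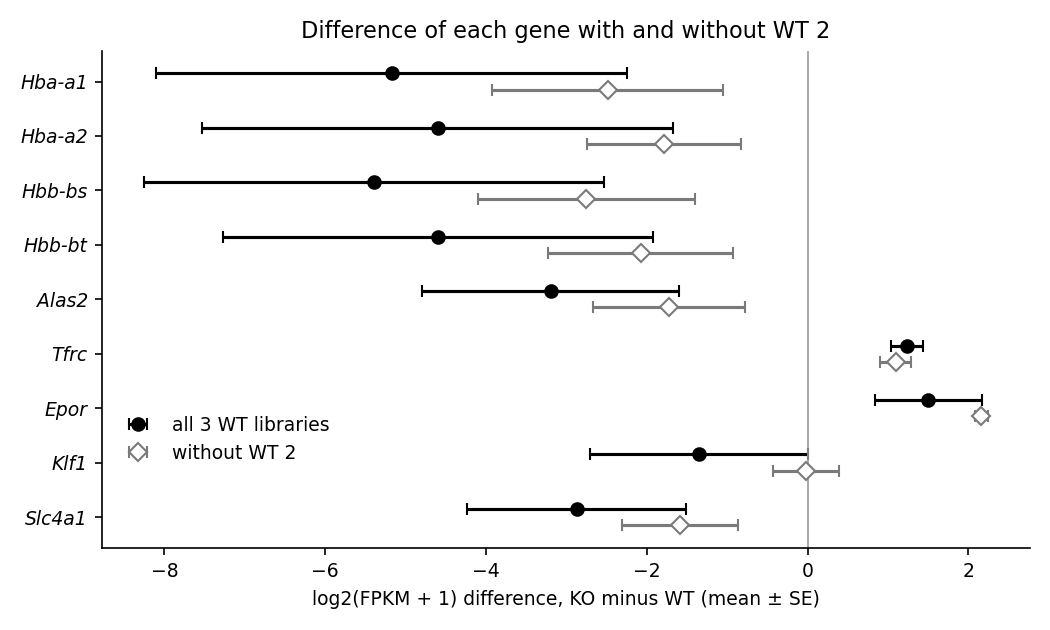
Difference of mean log2(FPKM + 1), KO minus WT, of each gene with its standard error, with all libraries (black circles, 3 against 3) and without WT 2 (open diamonds, 2 against 3). For the 4 globins, Alas2 and Slc4a1 the difference was nearer 0 without WT 2, Klf1 went from -1.35 to -0.02, and Epor from 1.5 to 2.16.

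In all, 6 of the 9 genes had every KO-labelled FPKM below every WT-labelled one, 2 had them above, and Klf1 overlapped. Among all 13393 genes past the filter on low values (FPKM 1 or more in 3 or more libraries), the groups did not overlap with KO below WT in 22.9% and with KO above WT in 26.2%. The genes were chosen on this same contrast, and nothing is read from their count. On RPM 4 genes lay below and 2 above, with both alpha-globins and Klf1 overlapping, and on TPM 2 lay below (Alas2 and Slc4a1) and 2 above. Tfrc and Epor were above on all 3 scales. The cells are labelled as BM with no sort given, and the paper calls them T-ALL cells. In RNA of such mixed or partly purified cells, fewer red cell precursors and less of each RNA per precursor cannot be told apart.

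The globins that the 9 do not include were nearly silent. The embryonic genes Hba-x, Hbb-y, Hbb-bh0, Hbb-bh1 and Hbb-bh2 had no read in any library; with a floor of 3 reads this allows up to between 0.161 and 0.255 RPM of the library size used. The theta-globin genes Hbq1a and Hbq1b had reads mainly in WT 2. Hbq1a had an FPKM of 1.83 there from 13 reads, 0.105 in KO 2 from 1 read, and 0 in the other libraries. Hbq1b had 7.86 in WT 2 from 67 reads, against 0 and 0.445 in WT 1 and WT 3 and 0.296, 0.0876 and 0 in KO 1 to KO 3. Both were highest where the adult globins were highest. Hbb-b1, Hbb-b2 and Ahsp were looked for and not found under these names among the genes with values, so they have none here.

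A further 82 genes of 7 erythroid lists, none of them among the 9, were compared by limma. Of these, 49 passed the filter on low values, and 8 were lower and 3 higher in the KO-labelled libraries at an adjusted p under 0.05, or 16.3% and 6.12%. Over all 13393 genes tested 13.3% were lower and 13.1% higher, so the share lower was near the background and the share higher was below it; neither was tested. Among the 8, Lmo2, Nfe2 and Slc40a1 had every KO-labelled FPKM under 1. They thus passed the filter through the WT-labelled libraries alone, that is, by the contrast itself. With no filter on low values the numbers were also 8 lower and 3 higher. The median log2 difference of the 49 was -0.44, beside 0.09 over all genes tested. WT 2 was the highest library for 29 of the 49, or 59.2%, against 30.2% of all genes tested, and for 24 of the 33 that failed the filter. Without WT 2, 19 were lower and 14 higher, or 38.8% and 28.6%, where 25.3% and 26.8% of all genes passed, so that the share lower was above the background. Without KO 1, KO 2 or KO 3 the number lower was 4, 4 and 5. The number lower among all 13393 genes also dropped, from 1785 to 1082, 996 and 1059, so nothing particular to these genes is read from the drop.

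Of 13 genes of heme synthesis and transport, 2 fell and none rose past the threshold. Alas1, the ALA synthase used outside the erythroid lineage, went from an FPKM of 12.7 ± 6.78 to 1.46 ± 0.113 (SD, n = 3; log2 difference -2.32, SE 0.45, limma adjusted p = 0.0115). Slc25a38, which carries glycine into mitochondria, went from 12.5 ± 3.87 to 5.35 ± 0.419 (log2 -1.05, limma adjusted p = 0.0336). Both were lower in each KO-labelled library than in any WT-labelled one. Alas1 just missed the threshold without KO 1, KO 2 or KO 3 (limma adjusted p = 0.0503, 0.0533 and 0.0541), with log2 differences of -2.36, -2.32 and -2.29. Slc25a38 lost its call without WT 1, KO 1, KO 2 or KO 3 (limma adjusted p = 0.0770, 0.125, 0.111 and 0.127) and on TPM, at -0.33 (limma adjusted p = 0.522). Alas1 had 14.8, 18.2 and 5.13 in WT 1 to WT 3, with WT 3 the lowest, another order than that of Alas2.

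Of 17 membrane and cytoskeleton genes only 3 reached the filter. Gypc, glycophorin C, which is also made outside red cells, rose from 3.38 ± 1.15 to 12.8 ± 2.21 (SD, n = 3; log2 1.68, limma adjusted p = 0.00698). In WT 2 the genes of this list summed to an FPKM of 145, against 19.2 and 34.1 in WT 1 and WT 3.

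Of 13 erythroid transcription factors 8 were tested, and 3 fell. Lmo2, a bridging protein of the GATA and TAL1 complex that is also known as a T-ALL oncogene, went from 16.6 ± 7.09 to 0.187 ± 0.163 (SD, n = 3; log2 -3.83, limma adjusted p = 0.000656). Nfe2, of the NF-E2 dimer of megakaryocytes and erythroid cells, went from 33.8 ± 31.1 to 0.831 ± 0.167 (log2 -3.76, limma adjusted p = 0.0123). Zbtb7a, a repressor of fetal globin, went from 21.3 ± 2.68 to 7.67 ± 1.12 (log2 -1.36, limma adjusted p = 0.00694). Lmo2 had 24.7 in WT 2, against 11.9 and 13.1 in WT 1 and WT 3. That gap is small beside the gap of the globins in the same libraries. Nfe2 had 26.7, 67.9 and 6.89 in WT 1 to WT 3, with WT 3 the lowest, another order than that of the globins. Every KO-labelled FPKM of Lmo2 and of Nfe2 was under 1, so both reached the test through the WT-labelled libraries alone. Lmo2 kept its call in all 18 alternatives. Nfe2 lost it without KO 1 (-3.69, limma adjusted p = 0.0555) and without KO 2 (-3.76, limma adjusted p = 0.0526), and Zbtb7a on TPM (-0.62, limma adjusted p = 0.393).

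Among 15 red cell enzymes and late erythroid genes 11 were tested and 1 passed. Fam210b, a mitochondrial protein of erythroid iron use, fell from 7.05 ± 2.90 to 0.712 ± 0.272 (SD, n = 3; log2 -2.18, limma adjusted p = 0.00421). Car2, carbonic anhydrase 2, had 2.17, 42.3 and 5.83 in WT 1 to WT 3 and 0.310, 0.813 and 0.103 in KO 1 to KO 3, and did not pass (log2 -2.83, limma adjusted p = 0.0656). With WT 2 left out Car2 passed, at -1.75 (limma adjusted p = 0.0114). Its order among the WT-labelled libraries, WT 2, WT 3 and WT 1, was that of the globins.

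Of 10 iron genes 7 were tested. Slc40a1, the iron exporter ferroportin, which macrophages also make, fell from 4.37 ± 3.28 to 0.0904 ± 0.0369 (SD, n = 3; log2 -2.12, limma adjusted p = 0.0141). Aco1, iron regulatory protein 1, which binds the RNA of Tfrc among others, rose from 4.27 ± 1.75 to 11.5 ± 1.20 (log2 1.31, limma adjusted p = 0.0288). Aco1 was, like Tfrc, lowest in WT 2, at 2.25. It did not pass without KO 1, KO 2 or KO 3 (limma adjusted p = 0.0858, 0.120 and 0.113), nor on TPM, where it was 2.19 (limma adjusted p = 0.0595). Slc40a1 did not pass without KO 1, KO 2 or KO 3 either (limma adjusted p = 0.0614, 0.0580 and 0.0575). Its KO-labelled FPKM were all under 1, so it reached the test through the WT-labelled libraries alone.

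All 7 genes of Epo receptor signalling were tested, of which 1 rose and 1 fell. Stat5a, a transcription factor activated through Epor and JAK2 and also through JAK3, rose from 7.31 ± 1.69 to 27.3 ± 4.15 (SD, n = 3; log2 1.78, limma adjusted p = 0.00425). Sh2b3, an adaptor that restrains JAK2, fell from 18.9 ± 5.91 to 5.23 ± 0.459 (log2 -1.63, limma adjusted p = 0.00853). On TPM Sh2b3 did not pass, at -0.95 (limma adjusted p = 0.299). Both genes are also used by other cytokine receptors.

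**Figure D4:**
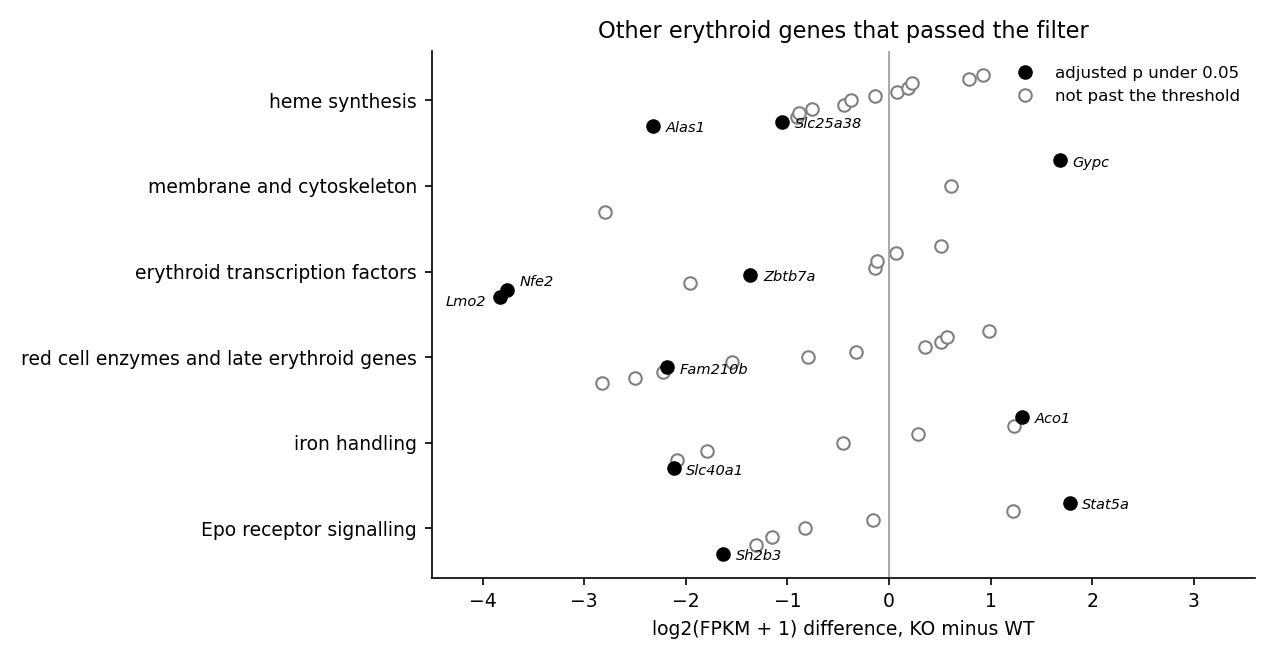
Difference of mean log2(FPKM + 1), KO minus WT, of the 49 genes of the other erythroid lists that passed the filter, 1 point per gene and 1 row per list (filled, limma adjusted p under 0.05; open, not past it). The 8 genes lower and 3 genes higher past the threshold are named.

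The protein-coding genes with the pattern nearest to the mean of the 4 adult globins, by the root-mean-square difference of centred log2(FPKM + 1) over the 6 libraries, were Cd79b (1.09), Mcpt8 (1.09), H2-Eb1 (1.27), Cd79a (1.31) and Prss34 (1.40). They are genes of B cells, of basophils and of MHC class II, and none is a red cell gene. The search left out the genes chosen by name and those that failed the filter on low values. Of the other erythroid genes 33 failed it, and WT 2 was the highest library for 24 of these. Among them Rhd, of the membrane list, had 0.366, 34.1 and 1.98 in WT 1 to WT 3 and 0.337, 0.398 and 0.195 in KO 1 to KO 3. The search therefore does not show that red cell genes lack the pattern. Cd79b had an FPKM of 524 in WT 2, 3.94 and 5.23 in WT 1 and WT 3, and 0.217 to 0.263 in the KO group. Nearest to Tfrc were Gemin5 (0.107), Ttc8 (0.111) and Parp11 (0.114), and nearest to Epor were Csrp1 (0.155), Mfge8 (0.187) and Dgcr6 (0.203). Csrp1 had 25.5, 77.1 and 21.2 in WT 1 to WT 3 and 83.5, 83.8 and 108 in KO 1 to KO 3, with WT 2 near the KO group as for Epor.

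Markers of other cell types were also highest in WT 2. Over 8 genes each, the summed FPKM of B cell markers was 12.6, 1259 and 18.9 in WT 1 to WT 3 and 2.85 to 12.8 in the KO group. The sum of the megakaryocyte and platelet markers was 7.79, 62.9 and 7.38 and then 1.68 to 2.09, and that of the macrophage markers 26.2, 87.1 and 15.6 and then 1.26 to 3.84. Neutrophil markers summed to 32598, 93615 and 6608 in the WT-labelled and to between 90.9 and 279 in the KO-labelled libraries. No marker was at 0 in all 6 libraries, but Ppbp, a platelet gene, was at 0 in all 3 KO-labelled ones. WT 2 was the highest library for all 8 genes of the neutrophil, B cell and platelet lists, for 5 of the 8 macrophage genes and for 5 of the 8 T cell genes. The part of these cell types in the globin levels was not tested.

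**Figure D5:**
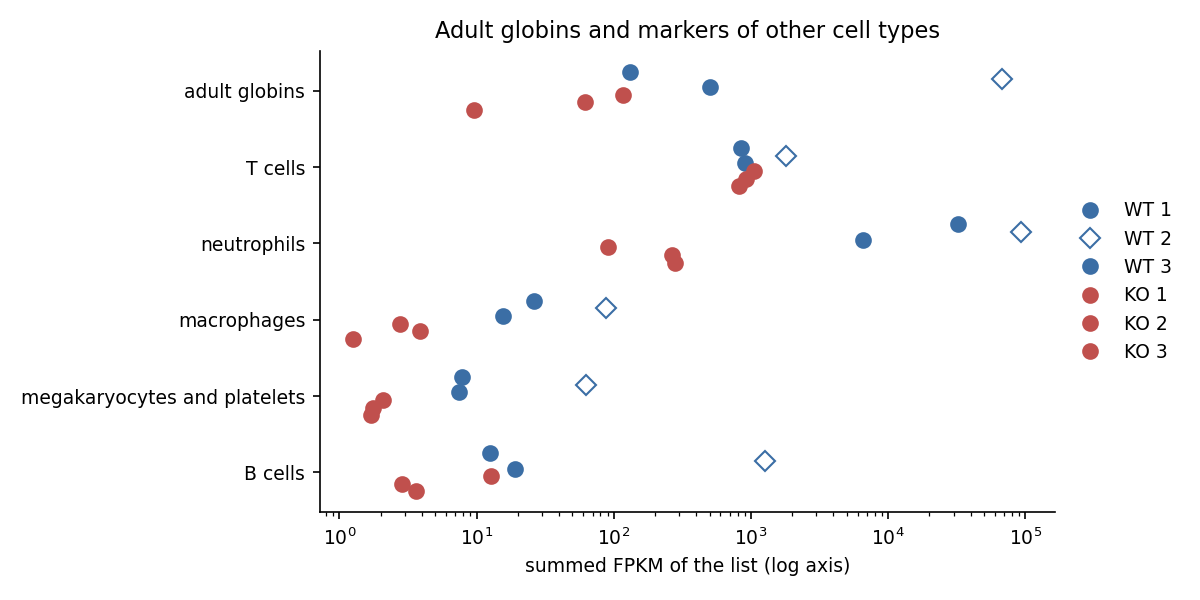
Summed FPKM (log axis) of the 4 adult globin genes and of 5 marker lists of 8 genes each, 1 point per library (blue, WT-labelled; red, KO-labelled; open diamond, WT 2). WT 2 was highest in every row, and all 3 WT-labelled libraries lay above the KO-labelled ones for the adult globins, neutrophils, macrophages, and megakaryocytes and platelets, but not for T cells or B cells.

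WT 2 was also set apart by gene length, and the globin genes are short, with lengths of 667 to 812 bases in the deposited table. Genes under 1000 bases took 17.1% of its reads, or 13.7% without the 4 globins, against 3.11% to 5.01% in the other libraries. Among 2368 genes tested of that length, the median of WT 2 minus the mean of WT 1 and WT 3 was -0.29 on the log2(FPKM + 1) scale. The globins stood at 7.55 to 8.45, above at least 99.8% of these genes. Alas2, among genes of 2000 to 4000 bases, stood at 4.42, and Slc4a1, among genes of 4000 to 8000, at 3.85. Tfrc, in the same class as Slc4a1, stood at -0.43 beside a class median of -0.30. The class median was 0.79 for 1000 to 2000 bases, 0.28 for 2000 to 4000 and -0.90 for 8000 or more. Among genes of 1000 to 2000 bases Epor stood at 1.98, above 79.3% of the class, and Klf1 stood above 99.2%. Genes of 8000 bases or more took 6.74% of the reads of WT 2, against 22.9% to 26.5% in the other libraries. With the gene length trend of each library removed, the log2 difference of Epor, KO minus WT, was 1.61, beside 1.5 as designed. The part of gene length in the Epor level of WT 2 itself was not tested.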

How the data were processed

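RNA of BM cells from 3 WT-labelled and 3 KO-labelled samples had been sequenced as read pairs. The submitters' notes name HISAT2 2.0.5, featureCounts 1.5.0-p3 and GRCm38; the use of strand is not given in the sources used here. The deposited values are FPKM, which the authors made from fragment counts, gene length and a library size. FPKM times length was a whole multiple (within 0.01) of a single step in 100% of values, which gave back the reads. Median-of-ratios factors of the deposited FPKM were 1 in each library, so such a scaling is already part of them. The study tested counts; because the unit is FPKM, log2(FPKM + 1), which understates changes of low genes, was fitted with limma 3.58.1 (lmFit, eBayes with trend, two-sided) in R 4.3.3. The filter kept 13393 genes at FPKM 1 or more in 3 or more of 6 libraries, and p was adjusted over them by Benjamini-Hochberg and judged at 0.05. With 3 libraries against 3, exact permutation reaches no p under 0.1. The fit was tested on simulated data in which both groups had the spread of the KO-labelled libraries. That setting held no library like WT 2, so it does not cover such a case.

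The members and lists were chosen with earlier results of these data known. Standard errors of the 9 genes come from the group SDs. Named genes are the 9, Phf6, other globins with a read, in each other list up to 4 called genes of smallest p (with under 2 calls, the 2 smallest), the 5 genes nearest to the globins and the 3 nearest to Tfrc and to Epor; another gene that this rule names is not reported here. Genes outside this rule are the marker genes and those said to be chosen after their values were seen. Alternatives were pseudocounts of 0.1 and 0.5, no filter, a filter at a mean FPKM of 5, median-of-ratios, quantile and TPM scaling, removal of the length trend, eBayes without trend, array weights, voom, a replicate block and leaving out each library; RPM of single genes was added after seeing the data. Replicates differed by more than sampling noise (chi-square per gene of 18.9 or more). Software also included Python 3.11.15 with SciPy 1.17.1. Coordinates of all 9 genes were those of GENCODE vM21.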

Additional observations from a re-analysis of the deposited data

How the results depend on the processing

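No difference of the 9 genes or of the summed globins changed sign under any alternative run. The number of genes past the threshold, 3539, was 1837 with a mean FPKM of at least 5, where 8296 genes were tested, and 8461 with array weights, and ranged from 1934 to 6967 when 1 library was left out, the highest without WT 2. Of the other erythroid genes, 8 were lower past the threshold, 22 with array weights, and 4 to 19 when 1 library was left out (19 without WT 2, 4 without KO 1 or KO 2 and 5 without KO 3). The number higher, 3, was 5 with quantile normalization and 14 with array weights, and ranged from 2 to 14 when 1 library was left out (14 without WT 2, and 2 without KO 1, KO 2 or KO 3). With array weights Hba-a1 went from -5.17 to -1.85, Hba-a2 from -4.60 to -1.38, Hbb-bs from -5.39 to -2.17, Hbb-bt from -4.59 to -1.47 and Alas2 from -3.20 to -1.13. Tfrc moved to 1.53 with quantile normalization and 2.09 on TPM, Epor to 2.77 on TPM and 2.49 with voom, and Slc4a1 to -1.09 with array weights and -4.69 with voom; the cause was not tested. The sum of the globins, not run with array weights, lay between -7.10 and -2.60. Of all calls 49.6% were higher, and 67.8% on TPM, which moved the median of all genes tested from 0.09 to 0.86; quantile normalization moved it to 0.15. The replicate block gave 2676 genes, 8 lower and 2 higher erythroid genes, with Slc25a38 and Aco1 not past the threshold (limma adjusted p = 0.0782 and 0.0700), and -5.27 for the globins; deviations of libraries with the same number correlated at 0.0954, 0.105 and -0.153, so the numbers were not taken as pairs. Klf1 had no value where the filter on low values came first, and Epor none with a mean FPKM of at least 5. Low read numbers limit Slc4a1 in KO 3 (5 reads), Klf1 outside WT 2, Epor in WT 1 and WT 3 and the summed globins of KO 3 (120 reads).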

Other observations

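Without WT 2, several erythroid genes were higher in the KO-labelled libraries that had not differed with it, and they were chosen after their values were seen. Gata1, the factor that binds GATA motifs, had an FPKM of 0.345, 11.1 and 0.318 in WT 1 to WT 3 and 1.63, 1.35 and 2.98 in KO 1 to KO 3. Its log2 difference was 0.07 with all libraries (limma adjusted p = 0.965) and 1.13 without WT 2 (limma adjusted p = 0.0135). Hemgn, an erythroid nuclear protein, had 0.568, 7.59 and 1.64 and then 3.93, 8.73 and 4.80, with 0.99 and, without WT 2, 1.68 (limma adjusted p = 0.318 and 0.0114). Prdx2, a red cell peroxidase, had 11.2, 139 and 12.9 and then 32.5, 33.9 and 41.2, with 0.35 and, without WT 2, 1.49 (limma adjusted p = 0.817 and 0.000877). Alad and Urod, of heme synthesis, had 1.11 and 0.99 without WT 2 (limma adjusted p = 0.00462 and 0.00224). On the FPKM scale the globins, Alas2 and Slc4a1 were below WT 1 and WT 3 in the same KO-labelled libraries; on TPM all 4 globins overlapped, and on RPM both alpha-globins.

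The alpha-globin pseudogene Hba-ps4, also chosen after its values were seen, did not follow the globins. It had 3, 0 and 6 reads in WT 1 to WT 3 and 4, 5 and 9 in KO 1 to KO 3, with none in WT 2, where Hba-a1 had 370231.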
